A study of Mus musculus with 6 samples.

Results

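The genes described are 31 genes of the unfolded protein response and the integrated stress response, chosen by name. Of the 31 names, 30 were on the array, among 50090 gene names in all, and these 30 genes were measured by 46 of 61307 probes. Of the 30 genes, 19 had 1 probe and 11 had several. The symbol of the RefSeq accession equalled the array name for all 30. A gene's value is that of its brightest probe, averaged over all arrays, and other probes are given where they disagreed. The average is of unscaled signal, so the brighter GFP and LT7 arrays weigh most in the choice. The rule can therefore favour probes that are lower in ST7, in these genes and in all genes alike. The name Ppp1r15a was not on the array, although a probe for its accession (NM_008654) carried the older name Myd116.

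The arrays compared 3 groups of NIH3T3 cells, an immortalised line of mouse embryonic fibroblasts, with 2 replicates of each from different passages. The control expressed GFP alone from a retroviral vector. LT7 and ST7 both carried SIRT7, a nucleolar NAD-dependent deacylase of the sirtuin family, fused to GFP in the same vector, and differed in shape, LT7 being long cells and ST7 small ones that grew in aggregates. LT7 and ST7 were each expanded from single cells of cultures that expressed SIRT7, so an effect of SIRT7 and a property of the clone cannot be told apart. Each array read the RNA of a whole culture, in which fewer cells with a message and less message per cell cannot be told apart either. RNA was labelled with Cy3 and hybridised to 6 one-colour Agilent arrays. The growth medium was the same for every group, and no group was treated with an agent that causes stress in the endoplasmic reticulum (ER).

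Proteins that enter the ER are folded by chaperones, which are lent out or withdrawn from membrane sensors as the load of unfolded protein changes. The sensor IRE1 splices the message of Xbp1, ATF6 is cut to release a transcription factor, and PERK phosphorylates the translation factor eIF2, after which most translation falls and that of Atf4 rises. ATF4 and its partner CHOP then raise genes of amino acid supply and redox balance, while XBP1 and ATF6 raise chaperones and the machinery that extracts misfolded proteins for destruction. Fibroblasts, which secrete large amounts of collagen, carry a high standing load on this system. An array reads the amount of message and not splicing of Xbp1, cleavage of ATF6 or phosphorylation of eIF2.

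The labels were checked with Sirt7, whose brighter probe had a signal of 3125 and 2480.2 on the GFP arrays, 3633 and 2782 on the LT7 arrays and 2.85 and 3.28 on the ST7 arrays. The arrays labelled ST7 were thus not well above background for a gene that the labels give as overexpressed, and LT7 differed from GFP by 0.29 (adjusted p = 0.47, SE 0.21) on the log2 scale in limma. The species of the SIRT7 cDNA is not given in the sources used here, so whether these probes read the transgene is unknown. ST7 is used below for the arrays so labelled. The 75th percentile of the processed signal lay between 317 and 384 on the GFP and LT7 arrays and was 16.3 and 17.1 on the ST7 arrays. Dividing by it raised the median log2 change of all genes in ST7 against GFP from -0.55 to 3.85. For this reason unscaled signals are printed for each gene and the change after this shift is given beside the change without it. Of 12 fibroblast markers, 12 were well above background on both GFP arrays and 4 on both ST7 arrays, and their summed signal went from between 427331 and 444009 in GFP to between 15075 and 16608 in ST7. Vim stayed well above background, with a signal of 14612 and 16192 in ST7, and Dcn did not, with 5.79 and 3.55. Of 9 epithelial markers, 1 was well above background on both GFP arrays and 3 on both ST7 arrays, and the summed signal went from between 91.1 and 176 to between 1984 and 2179. Cdh1 and 4 others were above background on neither ST7 array. In LT7 the summed signals were between 468188 and 471090 for the fibroblast markers and between 121 and 177 for the epithelial markers. The part of these cell type markers in the results below was not tested.

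In GFP cells 28 of the 30 genes were well above background on both arrays, against 50.4% of all genes. The exceptions were Dnajb11, an ER co-chaperone of the HSP40 family, and Derl3, a channel protein of ER-associated degradation. All 28 remained well above background on both LT7 arrays, as did 83.2% of all genes detected in GFP. Only 15 of the 28 did so on both ST7 arrays, where the share of all such genes was 41.8%. A further 12 of the 28 were above background on neither ST7 array, against 50.9%. No probe of these genes was saturated on any array.

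**Figure D1:**
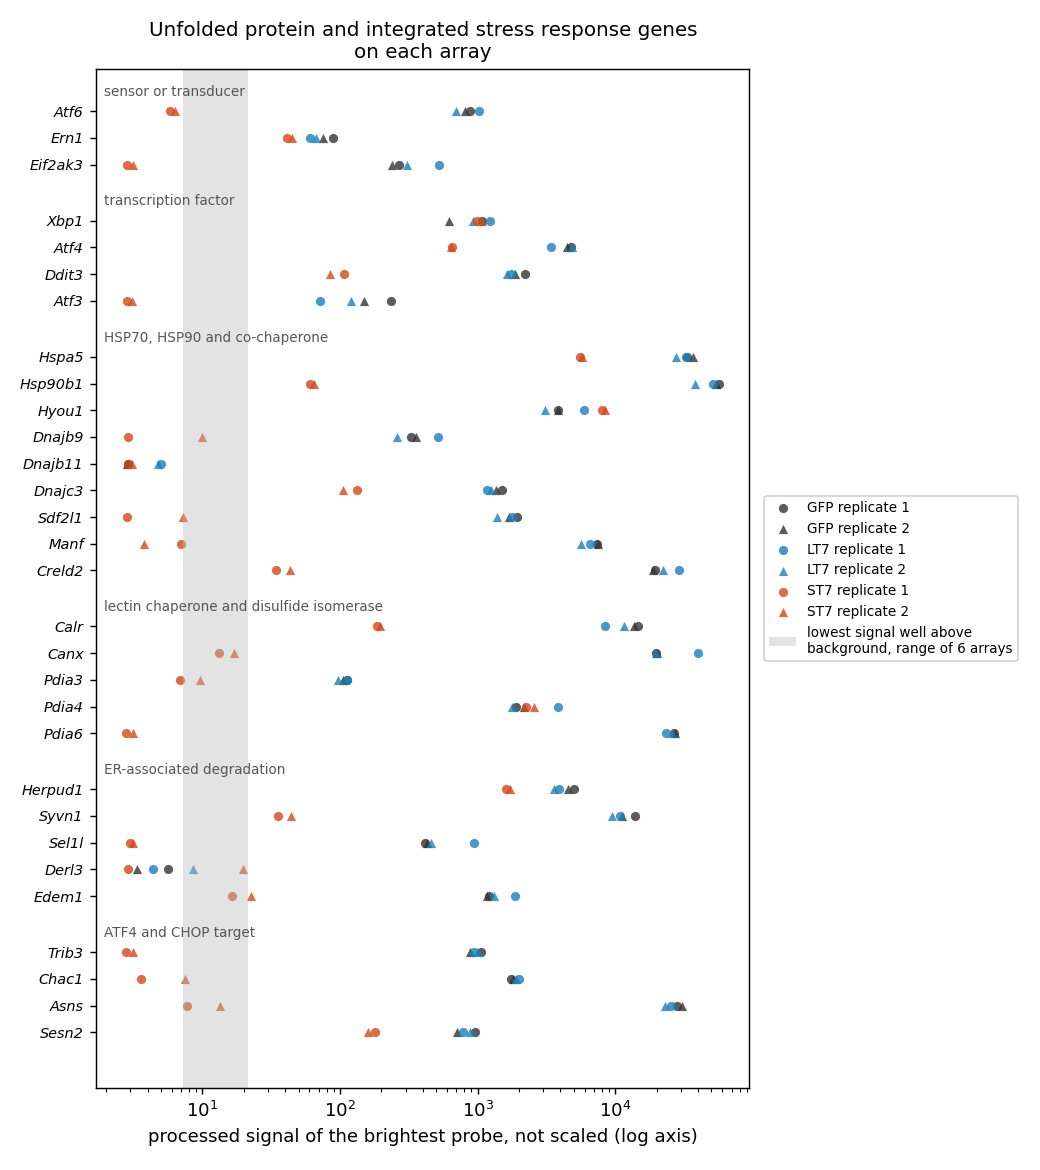
Processed signal of the brightest probe of each of the 30 genes on the 6 arrays, without scaling and on a log axis, with genes grouped by role. Circles are replicate 1 and triangles replicate 2, and the grey band spans the lowest signal well above background on each array. GFP and LT7 points lie close together, whereas most ST7 points lie to the left, 12 of the 28 genes detected in GFP having no ST7 array well above background.

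The first question was whether LT7, the SIRT7 line of long cells, differed from GFP in these genes. No gene of the 30 passed limma at an adjusted p under 0.05, against 0.182% of all genes. At an unadjusted p under 0.05 there were 3, namely Atf3, Dnajb11 and Eif2ak3, where the share of all genes was 27.4%. A fold rule modelled on that of the study, and read here on the log2 scale, asks that both replicates differ by 0.8 or more on the log2 scale and that their mean exceeds 1. By that rule 0 genes were higher and 0 lower, against 3.1% and 3.13% of all genes. The 30 changes ran from -0.92 to 0.86, with a median of 0.06. The highest was that of Dnajb11, which was well above background on no array, and the next was 0.77 for Eif2ak3. The median was 0.17 for all genes and -0.03 for the genes well above background in GFP. The shares of all genes in this paragraph include genes that were not well above background in GFP. After the shift both LT7 values lay above both GFP values for 8 genes and below them for 6, against 38.2% and 14.7% of all genes. In unscaled signal they lay above for 6 genes and below for 12, against 33.6% and 20.4%.

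Among the sensors, Eif2ak3, which encodes PERK, had a signal of 269 and 237 on the GFP arrays, 527 and 308 on the LT7 arrays and 2.81 and 3.11 on the ST7 arrays. Both LT7 values were above both GFP values, and the log2 change after the shift was 0.77 (adjusted p = 0.15, SE 0.28), limma. Ern1, which encodes IRE1, had 88.7 and 74.8 on the GFP arrays, 60.7 and 67.2 on the LT7 arrays and 41.1 and 44.8 on the ST7 arrays, and both LT7 values lay below GFP with a change of -0.25 (adjusted p = 0.52, SE 0.20). Atf6 had 883 and 815 on the GFP arrays, 1023 and 699.7 on the LT7 arrays and 5.85 and 6.29 on the ST7 arrays. Its LT7 values lay on either side of the GFP values, with a change of 0.09 (adjusted p = 0.86, SE 0.23).

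The transcription factors showed no common direction in LT7. Atf3, a factor that is induced early by many stresses, had a signal of 237 and 150.2 on the GFP arrays, 72.0 and 119.6 on the LT7 arrays and 2.82 and 3.09 on the ST7 arrays. This was the lowest change of the 30 genes, -0.92 (adjusted p = 0.16, SE 0.34), with both LT7 arrays under both GFP arrays, although the GFP arrays themselves differed and the LT7 arrays too. Xbp1, the message that IRE1 splices, had 1085 and 615 on the GFP arrays, 1231 and 932 on the LT7 arrays and 982 and 1084 on the ST7 arrays, a change of 0.49 (adjusted p = 0.34, SE 0.27) that was smaller than the gap between the GFP arrays. Atf4 had 4791 and 4441 on the GFP arrays, 3421 and 4819 on the LT7 arrays and 649 and 637 on the ST7 arrays, with a change of -0.09 (adjusted p = 0.89, SE 0.27). Ddit3, which encodes CHOP, had 2225 and 1877 on the GFP arrays, 1758 and 1644 on the LT7 arrays and 107 and 84.2 on the ST7 arrays. Its LT7 values were both below GFP by a small amount, -0.17 (adjusted p = 0.72, SE 0.23).

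The major ER chaperones differed little between LT7 and GFP. Hspa5, which encodes BiP, the HSP70 of the ER, read 33396 and 36501 in GFP and 32739 and 27544 in LT7, a change of -0.12 (adjusted p = 0.81, SE 0.22). Hsp90b1, which encodes GRP94, had 57104 and 54263 in GFP and 51565 and 37778 in LT7, a change of -0.24 (adjusted p = 0.59, SE 0.22). For Pdia6, a disulfide isomerase, the values were 26880.2 and 27152 and 23272 and 25915, a change of -0.04 (adjusted p = 0.94, SE 0.22). The 9 genes of the HSP70, HSP90 and co-chaperone group had a median change of -0.11 in LT7, with 4 genes higher and 5 lower. The 5 lectin chaperones and disulfide isomerases had a median of 0.02. Creld2, an ER resident that assists disulfide exchange, had the signals 19513 and 18772 in GFP and 29193 and 22268 in LT7, with both LT7 values above GFP and a change of 0.51 (adjusted p = 0.24, SE 0.23).

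The LT7 arrays differed from each other in several genes. Between them 5 genes differed by over 0.8 on the log2 scale with replicate 1 higher, namely Hyou1, Dnajb9, Sel1l, Canx and Pdia4, and 2 with replicate 2 higher, Atf3 and Derl3. Among the 25251 genes detected on both GFP arrays, 8.25% differed as much with replicate 1 higher and 14.9% with replicate 2 higher. Canx, the membrane lectin chaperone calnexin, had 40223 and 19788 in LT7 and 19941 and 20264 in GFP. Pdia4, a disulfide isomerase, had 3823 and 1778 in LT7 and 1890.0 and 2171 in GFP. Sel1l, the scaffold of the HRD1 ubiquitin ligase, had 939 and 462 and 411 and 429. In these 3 genes LT7 replicate 2 was close to the GFP arrays and replicate 1 lay above them. Between the GFP replicates no gene of the 30 differed by over 0.8. LT7 replicate 1 was read in a second scan of its own, and its spike-in RNAs had a mean signal of 5016, against 260 to 309 on the other arrays. Within the first scan, which leaves LT7 replicate 2 against the GFP arrays, the lone LT7 array was assumed to vary like the GFP and ST7 arrays. Limma then called 0 of the 30 genes, against 0.657% of all genes, and 1 at an unadjusted p under 0.05, against 24.5%. In that comparison 7 genes changed sign, among them Hyou1 (-0.15), Dnajb9 (-0.23) and Pdia4 (-0.04). The part of the scan in these values was not tested.

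Of the ATF4 and CHOP targets, the 4 genes on the array were near GFP in LT7. Asns, asparagine synthetase, had 28136 and 30389.7 in GFP and 25314 and 22904 in LT7, a change of -0.18 (adjusted p = 0.79, SE 0.31). Chac1, which degrades glutathione, had 1745 and 1797 and 1995 and 1915, with both LT7 values above GFP and a change of 0.24 (adjusted p = 0.76, SE 0.37). Trib3, a pseudokinase induced by CHOP, had 1051 and 887 and 940.2 and 1014, a change of 0.12 (adjusted p = 0.79, SE 0.20). The Myd116 probe, outside the 30 by its name, had 848 and 694 in GFP and 432 and 522 in LT7, a change of -0.59 (adjusted p = 0.31, SE 0.31). It reads the message of GADD34, the subunit that directs a phosphatase to eIF2.

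**Figure D2:**
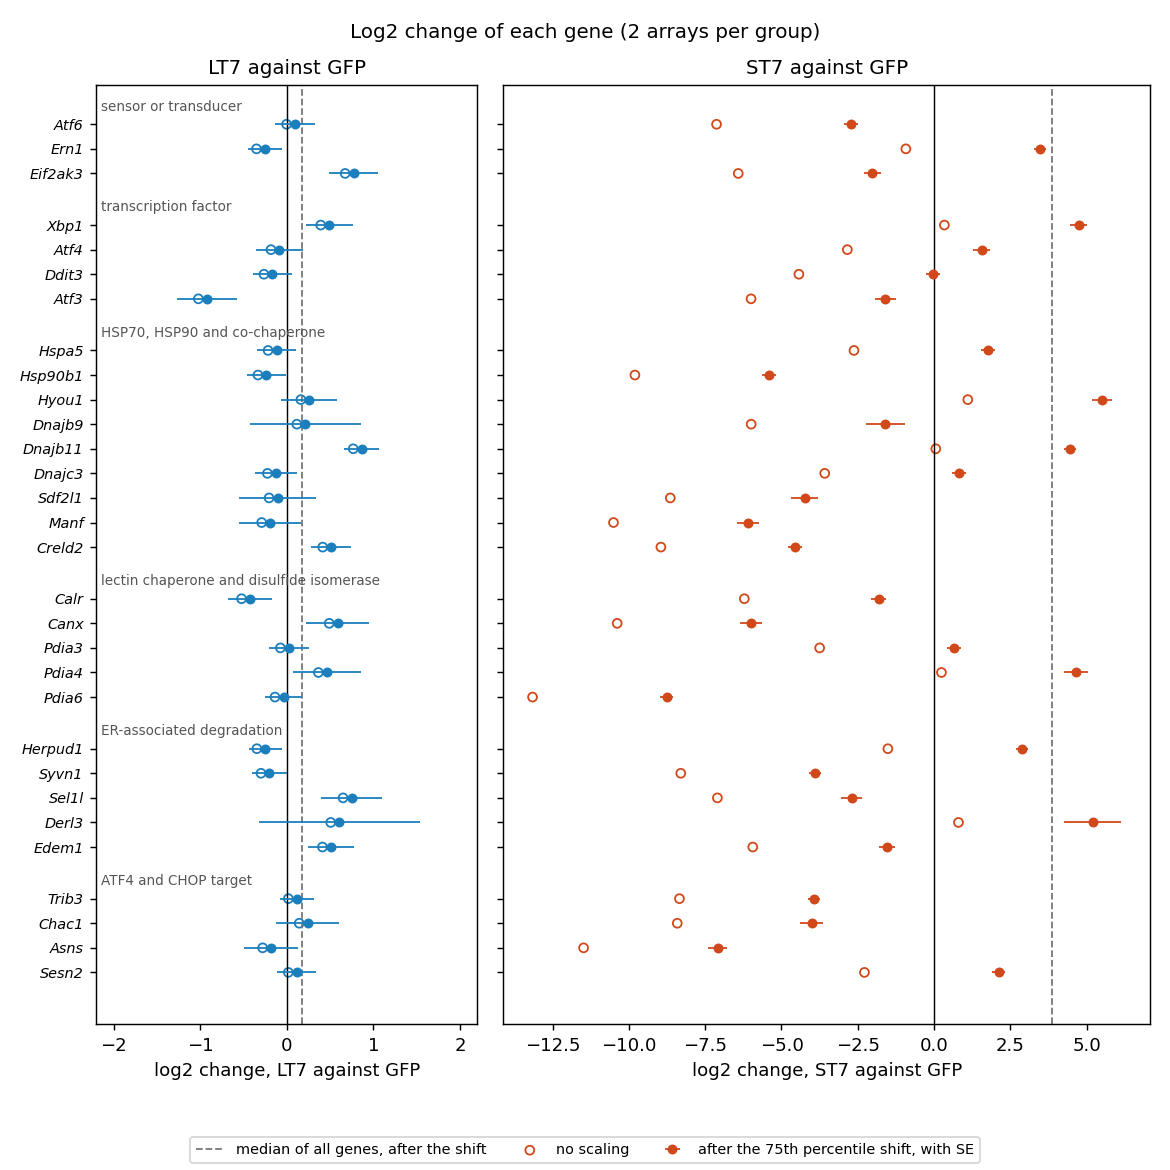
Log2 change of each gene in LT7 (left) and ST7 (right) against GFP, with 2 arrays per group and different horizontal scales. Filled points are after the 75th percentile shift with the standard error of limma, open points are without scaling, and the dashed line is the median of all genes after the shift. LT7 changes lie between -0.92 and 0.86, whereas ST7 changes run from -8.76 to 5.50 after the shift. The highest LT7 change is that of Dnajb11, which was well above background on no array.

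The second question was how the arrays labelled ST7, the line of small cells, differed from GFP. On these arrays 26.4% and 25.6% of probes were well above background, against 57.5% and 53.6% on the GFP arrays. Their spike-in RNAs had a mean signal of 260 and 260, against 274 and 309. Whether they hold the RNA of the named line was not tested, so the changes below are those of the arrays. Limma called 28 of the 30 genes, against 91.4% of all genes, so the number called says nothing about these genes in particular. The directions differed, since 12 genes were called higher, against 72.3% of all genes, and 16 lower, against 19.1%. Of the 28 genes well above background in GFP 10 were called higher and 16 lower, against 46.3% and 38.0% of all genes so detected. The fold rule gave 10 higher (72.4% of all genes) and 16 lower (18.5%). The median change was -1.60, while it was 3.85 for all genes and 0.63 for the genes well above background in GFP. With the mean over all probes of a gene the median of the 30 genes was -0.55. The split turned with the scaling. Limma called 7 genes higher and 20 lower with the percentile taken over probes detected on all arrays, where it called 57.2% of all genes higher and 25.9% lower. With quantile normalization it called 8 and 16 (34.1% and 22.9% of all genes), and with normexp background correction 9 and 16 (77.2% and 17.4%). Without scaling it called 0 higher and 25 lower (4.44% and 39.1%), and when the spike-in RNAs set the scale 0 and 17 (0.473% and 22.0%). The median of the 30 genes was -6.00 without scaling and -5.83 with the spike-in RNAs. Limma takes the spread from all 6 arrays, among them LT7 replicate 1 with its brighter spike-in RNAs. The part of that array in the smaller count was not tested. Under each way of scaling the median of the 30 genes lay below the median of all genes. It also lay below that of the genes well above background in GFP, by less. That median was -1.31 with the percentile over detected probes, where the 30 genes had -3.53. It was -0.82 against -2.57 with quantile normalization and 0.88 against -0.58 with normexp. Without scaling it was -3.77 against -6.00, and with the spike-in RNAs -3.61 against -5.83.

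**Figure D3:**
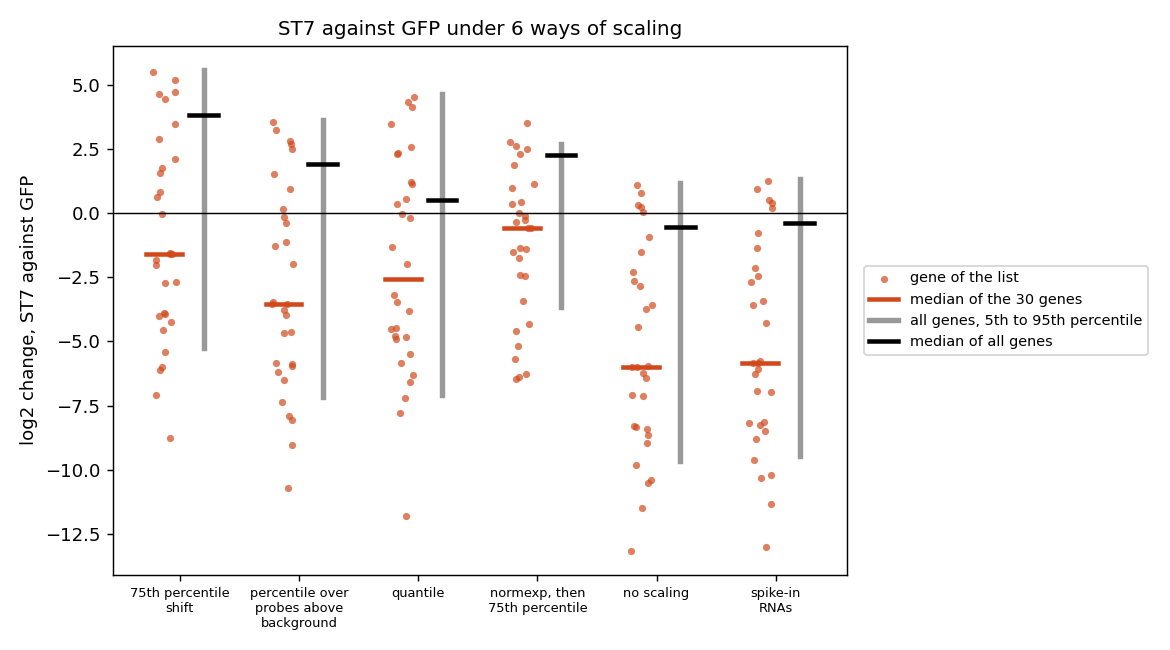
Log2 change in ST7 against GFP of the 30 genes (points, spread sideways at random) under 6 ways of scaling the arrays, with the median of the 30 genes and, for all genes, the median and the 5th to 95th percentile. The whole set moves with the scaling, and the median of the 30 genes lies below that of all genes each time (-1.60 against 3.85 after the 75th percentile shift). All genes include those not well above background in GFP, and the genes that were so had a median of 0.63 after that shift.

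On the brightest probe, some genes kept 1 direction under all 6 ways of scaling. Hyou1, Pdia4 and Xbp1 were higher in ST7 than in GFP each time, 3 of the 15 genes detected on both ST7 arrays, against 35.3% of all genes so detected. All 15 were also detected on both GFP arrays, as were 10543 of the 11500 genes behind the 35.3%. Before scaling 3 of the 28 genes detected in GFP had a higher mean log2 signal in ST7, against 12.6%. Another 15 of the 28 were lower in ST7 under all 6 ways, against 35.8%. These were Asns, Atf6, Calr, Canx, Chac1, Creld2, Dnajb9, Edem1, Hsp90b1, Manf, Pdia6, Sdf2l1, Sel1l, Syvn1 and Trib3. Of these, Calr, Canx, Edem1, Pdia6, Syvn1 and Trib3 had another probe that was higher after the shift. The other probes of Dnajb9 and Sel1l, at background in ST7, were higher with normexp correction (0.93 and 1.29 for Dnajb9, 0.44 for Sel1l). Where neither ST7 array was well above background the fold is a lower limit. It is taken from a floor on each array, which is the lowest signal marked well above background or, where that is higher, the signal of the probe. For these genes the log2 change is the value fitted to a signal at background and does not measure the size of the difference. All folds are relative to the 75th percentile unless they are said to be unscaled, and each adjusted p is from limma.

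The sensors parted in ST7. Atf6 fell to 5.85 and 6.29, not well above background, a log2 change of -2.73 (adjusted p = 0.00013, SE 0.23) and at least 4.39-fold lower. Eif2ak3 had 2.81 and 3.11, at background, with a change of -2.02 (adjusted p = 0.001, SE 0.28) after the shift and -6.42 without scaling. With normexp correction its change was 0.01, so its direction was not stable at this signal. Ern1 was the sensor still detected, at 41.1 and 44.8 against 88.7 and 74.8 in GFP. It was higher after the shift, by 3.47 (adjusted p = 2.8e-05, SE 0.20), and lower without scaling, by -0.92.

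Of the 4 transcription factors 3 stayed well above background on both ST7 arrays. Xbp1 had 982 and 1084 in ST7 against 1085 and 615 in GFP, so the unscaled groups overlapped, and the change was 4.74 (adjusted p = 2.8e-05, SE 0.27) after the shift and 0.34 without scaling. Atf4, with 649 and 637 against 4791 and 4441, was 2.94-fold higher after the shift and 7.17-fold lower without scaling, a log2 change of 1.56 (adjusted p = 0.0024, SE 0.27) and -2.84. For Ddit3 the ST7 signal was 107 and 84.2 against 2225 and 1877. Ddit3 was 1 of the 2 genes not called, with -0.03 (adjusted p = 0.9, SE 0.23), while its unscaled signal was 21.6-fold lower. Atf3 was at background in ST7, with 2.82 and 3.09, and its change was -1.60 after the shift, 0.35 with normexp correction and -6.00 without scaling. Its GFP signal relative to the percentile was under the ST7 floor, so no scaled fold is given.

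In the group of HSP70, HSP90 and co-chaperone genes, 4 of 9 genes were called higher after the shift and 4 lower. Hyou1, which encodes ORP150, a large HSP70 relative that exchanges nucleotide on BiP, was the gene with the highest change of the 30. Its signals were 3822 and 3819.8 on the GFP arrays, 5886 and 3102 on the LT7 arrays and 8039.8 and 8404 on the ST7 arrays, with both ST7 arrays above every other array before any scaling. The change was 5.50 (adjusted p = 3e-05, SE 0.32) after the shift, 45.4-fold, and 1.11 without scaling, 2.15-fold. Hspa5 had 5572 and 5755 in ST7 against 33396 and 36501 in GFP, which is 6.17-fold lower in unscaled signal, and was 3.42-fold higher relative to the percentile. Its log2 change was 1.77 (adjusted p = 0.00066, SE 0.22) after the shift, -0.16 with the percentile over detected probes, -0.13 with normexp correction and -2.62 without scaling.

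Hsp90b1 went the other way under every scaling. Its signal dropped from 57104 and 54263 to 60.2 and 64.4, a change of -5.40 (adjusted p = 1.7e-05, SE 0.22) and 42.4-fold after the shift, or 894-fold unscaled. Manf, a secreted ER protein that binds BiP, dropped from 7413 and 7477 to 6.94 and 3.78, at least 38.5-fold, with a change of -6.11 (adjusted p = 3e-05, SE 0.36). Creld2 dropped from 19513 and 18772 to 34.4 and 43.4, still well above background, by 23.5-fold with a change of -4.55 (adjusted p = 1.7e-05, SE 0.23). Sdf2l1, a partner of ER HSP40 proteins, dropped from 1941 and 1687 to 2.84 and 7.21, at least 9.36-fold. These 4 genes moved in the opposite direction to Hyou1 on the same arrays.

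The co-chaperones of the HSP40 family were mixed or not measured. Dnajc3, which encodes P58IPK, an inhibitor of PERK, had 1496 and 1350.3 in GFP and 134 and 104.97 in ST7, a change of 0.82 (adjusted p = 0.02, SE 0.24) after the shift and -3.58 without scaling. Dnajb9, which encodes ERdj4, was the other gene not called, with 2.86 and 9.97 in ST7 against 326 and 356 in GFP and a change of -1.59 (adjusted p = 0.059, SE 0.64). Of its other probes, 1 was called lower, with -0.74 (adjusted p = 0.034, SE 0.25), and 1 was not called, with -0.02 (adjusted p = 0.92, SE 0.20). On no array was Dnajb11 well above background, with 2.88 and 2.85 on the GFP arrays, 5.02 and 4.73 on the LT7 arrays and 2.86 and 3.11 on the ST7 arrays. Its call as higher after the shift, 4.46, stood against an unscaled change of 0.06, so no fold is given.

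The disulfide isomerases differed among themselves. Pdia6 had 26880.2 and 27152 in GFP and 2.79 and 3.13 in ST7, not well above background, so it was at least 139.8-fold lower on its brightest probe. The fitted change there was -8.76 (adjusted p = 1.7e-05, SE 0.22), and its other probes gave -3.91 and 0.13. Pdia4 had 1890.0 and 2171 in GFP and 2242 and 2559 in ST7, both ST7 arrays being above both GFP arrays before scaling but below LT7 replicate 1. Its change was 4.64 (adjusted p = 0.00012, SE 0.39) after the shift and 0.24 without it. Pdia3, with 113 and 106 in GFP and 6.84 and 9.64 in ST7, was not well above background in ST7, and its change of 0.65 after the shift became -3.75 without scaling. The lectin chaperones fell on their brightest probes. Calr, calreticulin, dropped from 14638 and 13739 to 187 and 194, 3.53-fold with a change of -1.82 (adjusted p = 0.0011, SE 0.26), and Canx from 19941 and 20264 to 13.3 and 17.0, a change of -5.99 (adjusted p = 3.3e-05, SE 0.36). Canx was well above background on only 1 ST7 array.

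Of the 5 genes of ER-associated degradation, 2 were called higher after the shift and 3 lower. Herpud1, a ubiquitin-like membrane protein of the HRD1 complex, kept a signal of 1614 and 1729 in ST7 against 5029 and 4526 in GFP. It was 7.39-fold higher after the shift, with a change of 2.88 (adjusted p = 4.4e-05, SE 0.19), and 2.86-fold lower without scaling. Syvn1, which encodes the ligase HRD1 itself, dropped from 13876 and 11277 to 35.4 and 44.4, a change of -3.90 (adjusted p = 2e-05, SE 0.20). Sel1l dropped from 411 and 429 to 2.999 and 3.13 on its brightest probe, at least 2.18-fold. The other probe of Sel1l was not called, with a change of -0.53 (adjusted p = 0.49, SE 0.69). Edem1, a mannosidase-like factor that passes glycoproteins on for degradation, had 1202 and 1166 in GFP and 16.4 and 22.6 in ST7, a change of -1.54 (adjusted p = 0.0023, SE 0.26). Derl3 was well above background on ST7 replicate 2 alone, with 5.63 and 3.33 on the GFP arrays, 4.40 and 8.60 on the LT7 arrays and 2.90 and 19.6 on the ST7 arrays.

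On their brightest probes the targets of ATF4 and CHOP were lower in ST7 with 1 exception. Asns dropped from 28136 and 30389.7 to 7.73 and 13.5, not well above background, a change of -7.09 (adjusted p = 1.7e-05, SE 0.31) and at least 111-fold. Chac1 dropped from 1745 and 1797 to 3.60 and 7.46, at least 8.99-fold, and Trib3 from 1051 and 887 to 2.81 and 3.14, at least 5.00-fold. On these probes all 3 were lower under each way of scaling. The second probe of Trib3 was well above background on both ST7 arrays, with 34.6 and 31.1 against 316 and 225 in GFP. Its change was 1.38 (adjusted p = 0.0024, SE 0.24) after the shift and -3.02 without scaling. Sesn2, a stress-induced regulator of mTORC1, was the exception, with 953 and 711 in GFP and 179.7 and 159 in ST7, 4.34-fold higher after the shift and 4.86-fold lower without scaling. The Myd116 probe had 7.94 and 5.13 in ST7, not well above background, with a change of -2.51 (adjusted p = 0.0006, SE 0.31).

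Probes of the same gene gave different changes in ST7. Across the 11 genes with several probes, the range of the change among the probes of a gene had a median of 0.40 in LT7 and 3.65 in ST7, against 0.25 and 2.85 over 5396 genes of the array with several probes. In ST7 the range ran from 0.63 to 8.89, and the probes took opposite signs in 7 of the 11 genes, as they did in 44.3% of the 5396 genes. Canx had probes at -5.99, -5.38 and 2.46, the last well above background on both ST7 arrays with 246 and 248 against 923 and 977 in GFP. The probes of Pdia6 gave -8.76, -3.91 and 0.13, of which the last had 51.4 and 42.9 in ST7 and 1135 and 718 in GFP. Calr had -1.82 and 1.19, Trib3 -3.95 and 1.38, and Syvn1 -3.90 and 3.89, each with the brightest probe lower and the other higher after the shift. Edem1 had -1.54, -2.28 and 4.50, and Dnajc3 had 0.82, -1.77 and -2.83. Without scaling the probes with a higher change after the shift were lower in ST7, except for the third of Edem1, which had 64.4 and 28.3 in ST7 against 46.3 and 34.5 in GFP. Every probe of Hsp90b1 and Atf6 fell. The second probe of Hsp90b1 had 35206 and 33816 in GFP and 2.92 and 3.38 in ST7, a change of -9.02. Hyou1, Pdia4, Xbp1 and Hspa5 had 1 probe each, so their values have no second probe to set beside them.

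**Figure D4:**
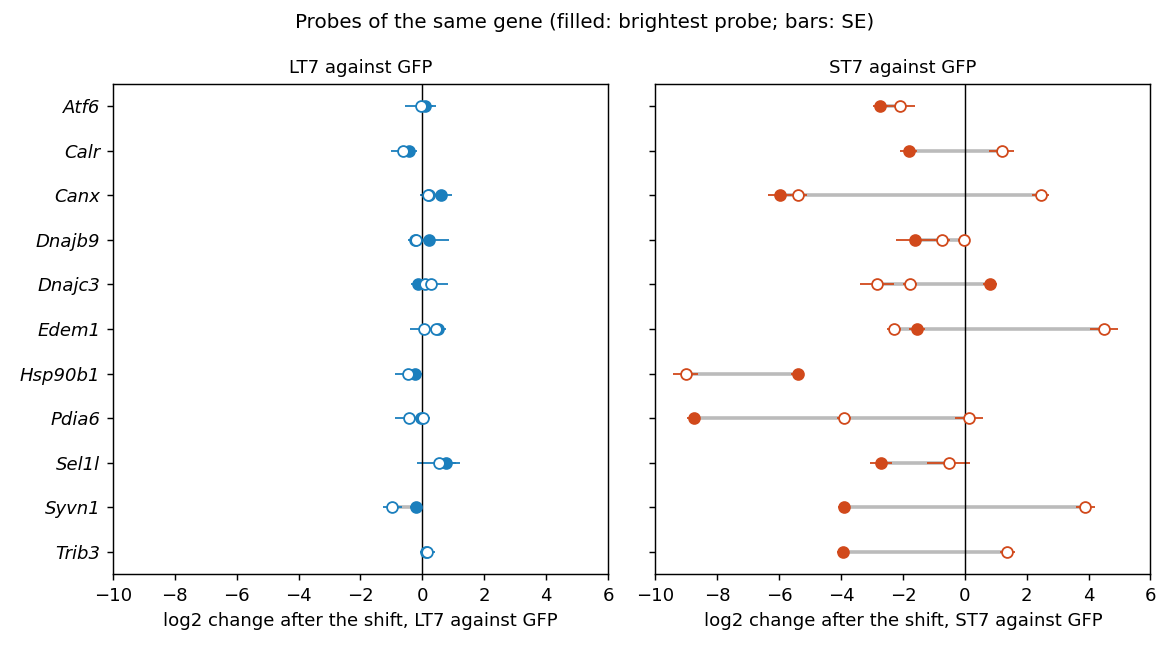
Log2 change after the 75th percentile shift for every probe of the 11 genes with several probes, LT7 on the left and ST7 on the right on the same scale, with the standard error of limma. Filled points are the brightest probe of a gene and grey lines join its lowest and highest. The probes of a gene lie within 0.77 of each other in LT7 and up to 8.89 apart in ST7.

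Promoter sequence was read to see which of these genes share a known response element. In the RefSeq table of GRCm38.p6, which gives 250 bases before and 50 after a gene's start, 28 of the 31 genes had a window. The table held none for Atf6, Hyou1 and Manf. The ER stress response element (ERSE), to which NF-Y and ATF6 bind, was searched on both strands as CCAAT and CCACG with any 9 bases between them. It was found in 9 of the 28 genes, against 0.137% of all 27025 genes of the table. The shorter ERSE-II, ATTGG and CCACG with any 1 base between them, was in Dnajb11 and Herpud1, against 0.0444%. The core of the unfolded protein response element, TGACGTGG, was in 0 of the 28, against 0.714%. The C/EBP-ATF response element of ATF4 targets, TGATGCAA, was in Atf3, Chac1 and Herpud1, against 1.03%. The genes were chosen by name from the responses that these elements serve, so the shares do not test for an excess. No match of 1 motif overlapped a match of another. The stretches before the start that hold a match are shown with 20 bases on either side, 5′ to 3′ on the strand of the gene, to let the chaperone promoters be compared. Fixed letters of the motif are in capitals, a match on the other strand reading as CGTGG followed by ATTGG, or as TTGCATCA.
Hspa5 (chr2:34772005-34772063, plus strand): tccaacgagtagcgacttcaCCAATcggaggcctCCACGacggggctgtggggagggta
Hsp90b1 (chr10:86705513-86705676, minus strand): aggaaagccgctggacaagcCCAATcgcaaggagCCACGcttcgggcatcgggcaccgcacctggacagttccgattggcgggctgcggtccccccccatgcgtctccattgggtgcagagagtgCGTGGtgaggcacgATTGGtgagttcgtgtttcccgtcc
Pdia6 (chr12:17266471-17266529, plus strand): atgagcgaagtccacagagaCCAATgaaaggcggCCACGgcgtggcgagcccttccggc
Calr (chr8:84847055-84847113, minus strand): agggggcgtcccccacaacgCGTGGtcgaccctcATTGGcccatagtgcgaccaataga
Canx (chr11:50325780-50325838, minus strand): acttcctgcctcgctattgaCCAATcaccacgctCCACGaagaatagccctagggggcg
Creld2 (chr15:88819500-88819558, plus strand): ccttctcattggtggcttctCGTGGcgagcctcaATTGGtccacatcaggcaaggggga
Dnajc3 (chr14:118937807-118937865, plus strand): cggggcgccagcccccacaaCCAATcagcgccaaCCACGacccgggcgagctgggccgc
Syvn1 (chr19:6046512-6046570, plus strand): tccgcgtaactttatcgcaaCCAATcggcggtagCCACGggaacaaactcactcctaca
Derl3 (chr10:75893222-75893280, plus strand): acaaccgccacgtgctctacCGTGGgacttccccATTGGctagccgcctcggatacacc
Herpud1 (chr8:94386297-94386407, plus strand): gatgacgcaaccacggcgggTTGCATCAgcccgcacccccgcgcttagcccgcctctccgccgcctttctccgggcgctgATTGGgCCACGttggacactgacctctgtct
Atf3 (chr1:191183416-191183463, minus strand): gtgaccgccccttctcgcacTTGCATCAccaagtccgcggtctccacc
Chac1 (chr2:119351029-119351076, plus strand): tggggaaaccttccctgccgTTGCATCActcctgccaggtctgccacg

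Hsp90b1 held the ERSE 2 times, beginning 212 and 107 bases before the start, and Hspa5 held it at 65 bases. The 9 genes with an ERSE changed by between -0.43 and 0.60 in LT7, with none called. In ST7 3 of them were called higher after the shift (Hspa5, Dnajc3 and Derl3) and 6 lower (Calr, Canx, Creld2, Hsp90b1, Pdia6 and Syvn1), a range from -8.76 to 5.20. The 18 other genes on the array with a window ran from -7.09 to 4.74, with 8 called higher and 8 lower. Of all genes 72.3% were called higher and 19.1% lower, and of those well above background in GFP 46.3% and 38.0%. These counts rest on the brightest probes. Calr, Canx, Pdia6 and Syvn1 had another probe that was higher after the shift, and Dnajc3 had others that were lower. Of the genes with the ATF4 element, Chac1 and Atf3 were at background in ST7 and Herpud1 was not. A match of letters does not show that a factor binds there.

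Compared directly with LT7, ST7 gave the same counts as against GFP, and both comparisons share the ST7 arrays. Limma called 28 of the 30 genes, against 91.3% of all genes, with 12 higher (72.3%) and 16 lower (19.0%). Ddit3 was again not called, with 0.14 (adjusted p = 0.58, SE 0.23), and Atf3 took the place of Dnajb9, with -0.67 (adjusted p = 0.11, SE 0.34) against LT7 and -1.60 against GFP. Hyou1 differed from LT7 by 5.24 and from GFP by 5.50. Pdia6 differed by -8.72 and -8.76, and Asns by -6.91 and -7.09. Without scaling the direction against LT7 was lower for 28 of the 30 genes, the exceptions being Hyou1 and Derl3. Of these, Derl3 was well above background on ST7 replicate 2 alone.

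Other genes of the same pathways were counted by list. Over 6 lists with 119 genes on the array, limma called 0 genes in LT7 at an adjusted p under 0.05, against 0.182% of all genes. At an unadjusted p under 0.05 it called 8, against 27.4% of all genes. The fold rule was passed by 3, against 3.1% of all genes higher and 3.13% lower. Vldlr, a lipoprotein receptor and ATF4 target, had 256 and 218 in GFP and 576 and 465 in LT7, a change of 1.23 (adjusted p = 0.1, SE 0.20). Casp12, a caspase of the ER membrane, had 702 and 786 and 1601 and 1224, a change of 1.01 (adjusted p = 0.1, SE 0.25). Map3k5, the kinase ASK1 downstream of IRE1, had 42.6 and 30.9 and 12.2 and 17.0, a change of -1.23 (adjusted p = 0.1, SE 0.27), and was not well above background in LT7.

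The same lists were counted in ST7. Over all genes detected in GFP, the share still detected in ST7 was the 41.8% given above, and 46.3% were called higher after the shift and 38.0% lower. Of 19 other ER chaperones and folding enzymes all were well above background on both GFP arrays and 9 on both ST7 arrays, with 7 called higher after the shift and 11 lower. Serpinh1, the collagen chaperone HSP47, had 56859 and 55934 in GFP and 11.3 and 13.4 in ST7, at least 214-fold lower, and P4hb, protein disulfide isomerase itself, at least 104-fold. Dnajb12, a membrane HSP40, had 423 and 406 in GFP and 677 and 670.1 in ST7. Of 20 genes of ER translocation, signal peptidase and glycosylation 7 stayed detected, 5 were called higher and 14 lower. The oligosaccharyltransferase subunits Rpn1 and Rpn2 fell by at least 222-fold and 140.4-fold, whereas Spcs1 of the signal peptidase had 9619 and 9555 in GFP and 5571 and 6391 in ST7. Of 17 other genes of ER-associated degradation 10 stayed detected, with 7 higher and 9 lower. Ufd1l, a cofactor of the p97 segregase, had 1224 and 1264 in GFP and 8986 and 9528 in ST7, higher without scaling by 2.89 on the log2 scale.

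In the arm of eIF2 and ATF4 detection was counted in the same way. The list here held 13 genes, namely other eIF2 kinases, subunits of eIF2 and its exchange factor, Ppp1r15b and Nck1. Of the 13 genes 5 stayed detected, with 3 called higher after the shift and 9 lower. Eif2b2 and Eif2s1 fell by at least 57.2-fold and 25.9-fold. Of 36 other ATF4 targets 34 were well above background in GFP and 14 of these in ST7, and 11 were called higher and 23 lower. Phgdh, the first enzyme of serine synthesis, dropped from 36705 and 41959.6 to 5.32 and 3.63, and Atf5 from 42729 and 41193 to 4.02 and 13.3. Ddit4, an inhibitor of mTORC1, had 4318 and 4554 in GFP and 5591 and 6571 in ST7, and Slc7a1, a transporter of cationic amino acids, 28.7 and 26.5 and 116 and 111. Of 14 other sensors and regulators of ER stress 4 stayed detected, with 5 higher and 7 lower.

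Chaperones outside the ER were counted too. Of 11 cytosolic heat shock genes 6 stayed detected in ST7, with 5 called higher and 6 lower. The small heat shock protein gene Hspb1 had 25.9 and 18.2 on the GFP arrays, 74.9 and 21.2 on the LT7 arrays and 1125 and 1260.2 on the ST7 arrays, and the inducible HSP70 gene Hspa1a had 138 and 109 on the GFP arrays, 103 and 142 on the LT7 arrays and 864 and 925 on the ST7 arrays. Both ST7 values were above every other array without scaling for each of them, by 5.78 and 2.87 on the log2 scale against GFP. Hsp90aa1, the inducible cytosolic HSP90, dropped from 53545 and 63038 to 6.71 and 3.81. Of 9 mitochondrial chaperones and proteases 2 stayed detected, with 1 higher and 8 lower. For comparison, 8 of 11 housekeeping genes stayed detected, with 6 higher and 5 lower and a median change of 1.26 after the shift, against -1.60 for the 30 genes.

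**Figure D5:**
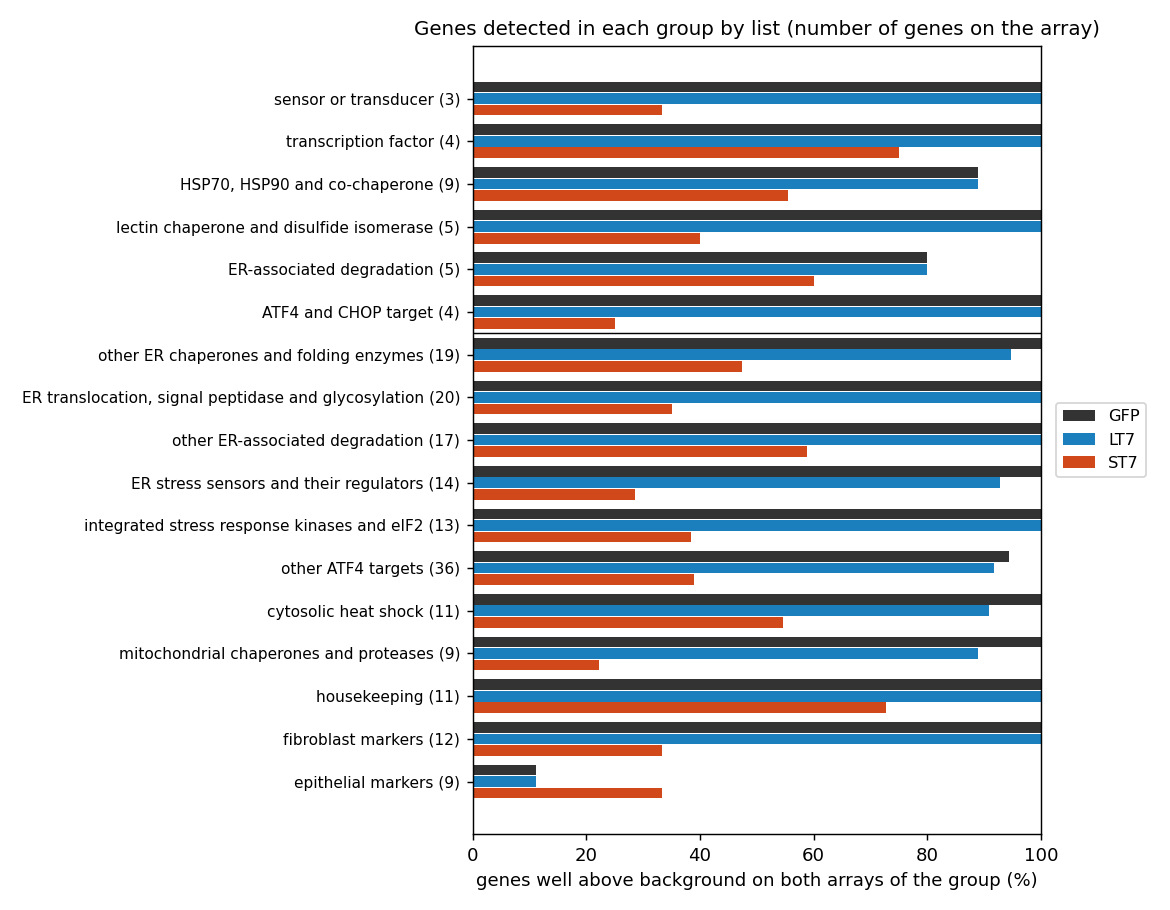
Percentage of the genes of each list that were well above background on both arrays of GFP, LT7 and ST7, with the number of genes on the array in brackets. The 6 lists above the line hold the 30 genes and those below it the other lists. GFP and LT7 bars are of like length, and ST7 bars are shorter in every list except the epithelial markers, where 3 of 9 genes were detected in ST7 and 1 in GFP.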

How the data were processed

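RNA from 3 groups of NIH3T3 cells, 2 replicates each, was measured on 6 one-colour arrays. The processed signal is an intensity, deposited by the authors after Agilent Feature Extraction had removed the background, with no scaling between arrays. The deposited mean signal and local background are also intensity. A deposited series matrix holds the authors' log2 values after a shift to the 75th percentile. Groups follow the sample labels.

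Processed signals were put on the log2 scale without outlier spots (19 to 141 per array), averaged over repeated spots and shifted by the 75th percentile of the array. The lmFit and eBayes functions of limma 3.58.1 (R 4.3.3) compared the groups two-sided over all 61307 probes and all 6 arrays, and a p under 0.05 after Benjamini-Hochberg adjustment was called. A gene's value is that of its brightest probe over the 6 arrays, and shares of all genes use the same rule. Tables and plots were made with pandas 2.3.3, numpy 2.4.6 and matplotlib 3.10.9 under Python 3.11.15. The fit was tested on simulated data. Between 25.6% and 57.5% of probes were well above background per array, and the number of arrays limits precision.

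All listed genes on the array are named. From each other list at most the genes with the highest and lowest changes are named, and those that passed the fold rule. The genes and lists were chosen with earlier results of these data known. Alternatives were the percentile over detected probes (11087), quantile normalization, no scaling, spike-in RNAs, normexp with an offset of 50, a filter on dim probes, the mean over probes, only the arrays compared, the replicate number as a block, the series matrix and each array left out. The array's own gene positions were not used. Promoter windows and their coordinates are from RefSeq, GRCm38.p6.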

Additional observations from a re-analysis of the deposited data

How the results depend on the processing

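In LT7 no processing choice or left-out array gave a call among the 30 genes. The median change was -0.040 without scaling, -0.0080 after a filter on dim probes and -2.11 when the spike-in RNAs set the scale. With 1 array left out it was -0.035 to 0.096. With the spike-in RNAs these genes were lower in LT7 where the shift made them higher: Atf6 (-2.07), Eif2ak3 (-1.40), Xbp1 (-1.68), Hyou1 (-1.91), Dnajb9 (-1.95), Dnajb11 (-1.30), Creld2 (-1.65), Canx (-1.58), Pdia3 (-2.14), Pdia4 (-1.70), Sel1l (-1.42), Derl3 (-1.56), Edem1 (-1.66), Trib3 (-2.05), Chac1 (-1.93) and Sesn2 (-2.05). That scaling rests on 4 RNAs that were brighter on LT7 replicate 1, and the cause was not tested. The sign in LT7 also turned without scaling for Atf6 (-0.0043) and Pdia3 (-0.075), with quantile normalization for Pdia6 (0.064) and with the mean over probes for Dnajb9 (-0.078) and Dnajc3 (0.073). With 1 array left out it turned within these ranges for Atf6 (-0.13 to 0.32), Atf4 (-0.38 to 0.21), Hspa5 (-0.31 to 0.068), Hyou1 (-0.15 to 0.67), Dnajb9 (-0.23 to 0.66), Sdf2l1 (-0.24 to 0.030), Pdia3 (-0.053 to 0.10), Pdia4 (-0.039 to 0.96), Pdia6 (-0.17 to 0.091), Sesn2 (-0.019 to 0.25).

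In ST7 limma called 24 to 28 genes under the other choices and 17 with the spike-in RNAs, and 26 to 28 with 1 array left out. Against LT7 it called 24 to 28, 13 with the spike-in RNAs, and 26 to 27 with 1 array left out. The median change against GFP was -3.53 with the percentile over detected probes, -2.57 with quantile normalization, -6.00 without scaling, -5.83 with the spike-in RNAs, -0.58 with normexp and -0.55 with the mean over probes. Against LT7 it was, in the same order, -3.53, -2.57, -5.90, -3.67, -0.93 and -0.40. With 1 array left out the medians were -1.77 to -1.46 and -1.81 to -1.17.

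The sign in ST7 against GFP turned without scaling for Ern1 (-0.92), Atf4 (-2.84), Hspa5 (-2.62), Dnajc3 (-3.58), Pdia3 (-3.75), Herpud1 (-1.51) and Sesn2 (-2.28) and with the spike-in RNAs for Ern1 (-0.76), Atf4 (-2.68), Hspa5 (-2.46), Dnajc3 (-3.42), Pdia3 (-3.59), Herpud1 (-1.35) and Sesn2 (-2.12). It turned with the percentile over detected probes for Atf4 (-0.38), Hspa5 (-0.16), Dnajc3 (-1.12) and Pdia3 (-1.29), with normexp for Eif2ak3 (0.013), Atf4 (-0.34), Atf3 (0.35), Hspa5 (-0.13) and Dnajc3 (-0.56), with quantile normalization for Ddit3 (0.35), Dnajb11 (-0.019) and Pdia3 (-0.19) and with the mean over probes for Dnajc3 (-1.26) and Edem1 (0.22). With 1 array left out it turned for Ddit3 (-0.24 to 0.18). The cause of these turns was not tested.

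Replicate numbers were not treated as pairs, since arrays of the same number did not deviate together (correlations 0.08, 0.04 and -0.02). With the replicate number as a block limma called 0 genes in LT7, 28 in ST7 against GFP and 26 in ST7 against LT7. Signal over background set the limits, since of the 28 genes detected in GFP 10 have only a bound in ST7 and 2 have no scaled fold. Where 1 array was left out, the spread of the remaining array of that group was taken from the other groups.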
